A study of Mus musculus with 8 samples.

Results

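The genes described here are 10 components of noncanonical Wnt and planar polarity signalling, among the 56748 genes of a bulk RNA sequencing study of mouse molars: Kif26b, Dact1, Ror1, Ror2, Vangl1, Vangl2, Celsr1, Prickle1, Prickle2 and Ptk7. They were listed by their place in the Wnt5a-Ror-Kif26b and planar polarity pathways, and Kif26b and Dact1 also because they were among the clearest differences between the genotypes. The genotype difference was therefore used in the choice, and the members' values are given as descriptions, without printed p-values. Calls of members at an adjusted p threshold, given later, are descriptions too. All 10 passed the filter on low counts, the lowest with 35 reads in a library.

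The study compared cells sorted for the red fluorescent protein tdTomato from the molars of the lower jaw of mice at postnatal day 10, after a tamoxifen pulse at day 3. The 4 libraries labelled cHet have the genotype Ctnnb1(+/-) and the 4 labelled cKO Ctnnb1(-/-). Ctnnb1 encodes beta-catenin, the transducer of canonical Wnt signalling. By these labels every library has at least 1 conditionally deleted copy and none has both copies intact. Whether the copies were deleted in the sequenced cells was not checked here. Cells of both groups are described as CXCL12+ cells of the apical papilla, the mesenchyme below the pulp at the open end of the developing root. The tissue field gives dental pulp and the extraction protocol speaks of dental follicle cells. The driver of the recombinase is not named in the sources used here, nor whether animals were pooled.

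Noncanonical Wnt signalling does not act through beta-catenin. Wnt5a binds Ror receptors with Frizzled co-receptors, Dishevelled proteins relay the signal to the cytoskeleton, and in mesenchymal cells the Wnt5a-Ror signal is known to lead to degradation of the Kif26b protein. Planar polarity proteins sort to opposite sides of a cell, Vangl and Prickle proteins facing Frizzled and Dishevelled across Celsr bridges, and so orient cells within a tissue. Both systems shape growing organs through directed cell movement.

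Each library held 44444033 to 50051392 counts, and the biological coefficient of variation shared by all genes was 0.553, a large spread. Values are CPM, library-size normalised counts scaled by trimmed-mean (TMM) factors. Ctnnb1 had 257 ± 40.2 CPM (SD) in the 4 cHet and 277 ± 39.2 CPM in the 4 cKO libraries. Its count sums over the whole gene, and the deleted exons are not named in the labels, so it does not check the genotype. Markers of other cell types were abundant in libraries labelled as sorted papilla cells. The summed level of 11 olfactory neuron markers was 6949 to 13147 CPM in cHet and 6217 to 7633 CPM in cKO (exact permutation p = 0.0857), and Omp, a defining gene of mature olfactory neurons, reached 1737 CPM or more in each library. Ameloblast markers summed to 2312 to 11451 CPM in cHet and 4706 to 8542 CPM in cKO (exact p = 0.771). Markers of support cells and glands of the olfactory epithelium summed to 770 to 1087 CPM in cHet and 252 to 803 CPM in cKO (exact p = 0.0571), and odontoblast markers to 99.5 to 314 CPM and 66.4 to 177 CPM (exact p = 0.114). Neutrophil markers summed to 22.2 to 14706 CPM in cHet and 8.48 to 407 CPM in cKO (exact p = 0.114), with the highest value in cHet12 and the next at 1054 CPM. Macrophage markers summed to 139.9 to 2985 CPM and 97.8 to 295 CPM (exact p = 0.114), again highest in cHet12. The 16 general mesenchyme markers summed to 3995 to 12717 CPM in cHet and 14357 to 28301 CPM in cKO, without overlap (exact p = 0.0286, the smallest possible, and 0.2 adjusted over 14 marker lists). The 13 dental mesenchyme markers, which include Cxcl12, summed to 536 to 1414 CPM in cHet and 2882 to 5360 CPM in cKO (exact p = 0.0286, 0.2 adjusted). None of the 14 lists passed after adjustment, for which 0.2 was the smallest value. The lowest mesenchyme levels of their groups were those of cHet11 (3995 CPM) and cKO9 (14357 CPM). The part of these markers in the differences described next was not tested, but each member is also given relative to the general mesenchyme markers. In bulk samples fewer cells of a type and less RNA per cell cannot be told apart.

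Kif26b and Dact1, with Prickle2, had the largest differences of the 10 genes, and all were higher in cKO. Kif26b, a kinesin-family protein that binds microtubules and is a target of Wnt5a-Ror signalling, was at 8.26 CPM in cHet8, 3.77 in cHet11, 5.58 in cHet12 and 4.51 in cHet14. In cKO7 it was at 66.1 CPM, in cKO9 at 60.7, in cKO14 at 73.9 and in cKO15 at 103. The groups were far apart, since the lowest cKO library was several times the highest cHet library. The means were 5.53 ± 1.96 and 76.0 ± 19.0 CPM (SD, n = 4), a 13.7-fold difference (log2 3.78, SE 0.30). From the highest log2 fold change downwards it ranked 23 of 21508 tested genes.

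Dact1, a scaffold protein that binds Dishevelled and Vangl proteins, was at 55.9, 35.3, 44.5 and 41.6 CPM in cHet8, cHet11, cHet12 and cHet14. In cKO7, cKO9, cKO14 and cKO15 it was at 292, 149.5, 273 and 316 CPM. cKO9 stood at about the middle between the highest cHet library and the other cKO libraries, and the groups did not overlap. The means differed 5.81-fold, 44.3 ± 8.63 against 258 ± 74.2 CPM (log2 2.54, SE 0.25).

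The sequences before the starts of both genes are shown because these members differed most, beside that of Dact3, the called relative described later. They are the 250 bases upstream of the RefSeq start on GRCm38.p6, 5′ to 3′ on the gene's strand, and the counts were made on another build, GRCm39. Kif26b lies at chr1:178528875-178529124 (+), Dact1 at chr12:71309634-71309883 (+) and Dact3 at chr7:16875067-16875316 (+). Capitals mark CAAAG, the core of the site bound by the TCF/LEF partners of beta-catenin, and GGGCGG, the GC box, on either strand.
Kif26b: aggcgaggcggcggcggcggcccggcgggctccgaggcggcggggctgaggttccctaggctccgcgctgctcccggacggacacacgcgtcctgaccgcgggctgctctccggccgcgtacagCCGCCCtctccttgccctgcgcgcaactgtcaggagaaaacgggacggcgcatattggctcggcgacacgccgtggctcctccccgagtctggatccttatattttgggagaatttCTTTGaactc
Dact1: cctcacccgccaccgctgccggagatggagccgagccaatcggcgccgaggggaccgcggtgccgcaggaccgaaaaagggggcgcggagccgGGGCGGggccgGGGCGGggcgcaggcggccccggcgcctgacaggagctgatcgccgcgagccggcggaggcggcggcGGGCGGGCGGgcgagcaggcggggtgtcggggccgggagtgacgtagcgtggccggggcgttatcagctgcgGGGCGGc
Dact3: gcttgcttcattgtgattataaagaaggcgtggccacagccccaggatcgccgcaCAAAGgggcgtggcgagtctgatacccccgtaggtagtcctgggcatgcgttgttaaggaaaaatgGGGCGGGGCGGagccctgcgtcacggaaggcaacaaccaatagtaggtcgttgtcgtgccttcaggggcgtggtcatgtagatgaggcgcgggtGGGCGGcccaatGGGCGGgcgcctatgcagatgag
Kif26b has a single CAAAG, read as CTTTG on the strand shown, close to its start, and 1 GC box. Dact1 has no CAAAG and 5 GC boxes, some of which overlap, in a window of 80.4% G and C. Dact3 has 1 CAAAG and 4 GC boxes. RefSeq windows were found for 8 of the 10 members, 12 windows in all since Prickle1 and Prickle2 have several starts. CAAAG was in 6 of the 12 and in 48.6% of all 32851 windows. The longer ATCAAAG, which contains CAAAG, was in 1 of the 12, at an alternative start of Prickle2, and in 3.21% of all windows. GGGCGG was in 11 of the 12 and in 32.7% of all windows. These matches describe letters only.

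Among the receptors, Ror2 had a larger difference than Ror1, and both overlapped between groups. Ror1 and Ror2 are receptor tyrosine kinase-like proteins that bind Wnt5a. Ror2 was at 28.1, 9.21, 23.6 and 15.1 CPM in cHet8, cHet11, cHet12 and cHet14, and at 54.2, 20.7, 42.7 and 56.1 CPM in cKO7, cKO9, cKO14 and cKO15. Of the cKO libraries cKO9 alone fell within the cHet range, and the log2 fold change was 1.19 (SE 0.41). Ror1 was at 11.3 to 20.98 CPM in cHet and at 23.8, 9.84, 30.7 and 34.9 CPM in cKO7, cKO9, cKO14 and cKO15 (log2 0.54, SE 0.38). cKO9 had the lowest Ror1 of all 8 libraries, and the other cKO libraries were above every cHet library. Ptk7, a receptor-like protein with an inactive kinase domain that takes part in planar polarity, was at 66.2, 29.7, 104 and 43.7 CPM in cHet8, cHet11, cHet12 and cHet14. It was at 125, 176, 154 and 178 CPM in cKO7, cKO9, cKO14 and cKO15. The groups did not overlap although cHet12 came close to cKO7, and for this receptor cKO9 was among the highest (log2 1.37, SE 0.36).

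The core polarity genes were not alike. Prickle2, a cytoplasmic LIM-domain partner of Vangl proteins, was at 6.64, 5.82, 5.01 and 4.66 CPM in cHet8, cHet11, cHet12 and cHet14, and at 13.1, 27.2, 24.0 and 29.3 CPM in cKO7, cKO9, cKO14 and cKO15. cHet libraries lay close together, and cKO7 was the lowest cKO library at nearly 2 times their highest. The difference was 4.23-fold (log2 2.08, SE 0.28). Its relative Prickle1 was at 11.8 to 22.8 CPM in cHet and 28.7 to 50.9 CPM in cKO, without overlap (log2 1.17, SE 0.26).

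Vangl1 and Vangl2 are multipass membrane proteins at the centre of the polarity complex. Vangl1 was at 21.1, 9.49, 21.1 and 19.5 CPM in cHet8, cHet11, cHet12 and cHet14, and at 41.4, 23.9, 53.9 and 62.7 CPM in cKO7, cKO9, cKO14 and cKO15 (log2 1.35, SE 0.35). The groups did not overlap, but cKO9 was close to the upper cHet libraries. Vangl2 was at 22.8 to 35.8 CPM in cHet and 30.8 to 52.4 CPM in cKO, with overlap (log2 0.50, SE 0.21). Celsr1, a cadherin-like receptor that bridges neighbouring cells, was the least abundant member, at 2.50, 5.68, 2.59 and 3.45 CPM in cHet8, cHet11, cHet12 and cHet14 and 0.779, 6.998, 3.43 and 2.11 CPM in cKO7, cKO9, cKO14 and cKO15. Its lowest and highest libraries were both cKO (log2 −0.09, SE 0.62), and without cHet11, cKO7 or cKO15 the value was positive, up to 0.21. Beside it, the 8 epithelial markers summed to 701 to 1037 CPM in cHet and 720 to 819 CPM in cKO (exact permutation p = 0.143), and their part in the Celsr1 values was not tested.

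**Figure D1:**
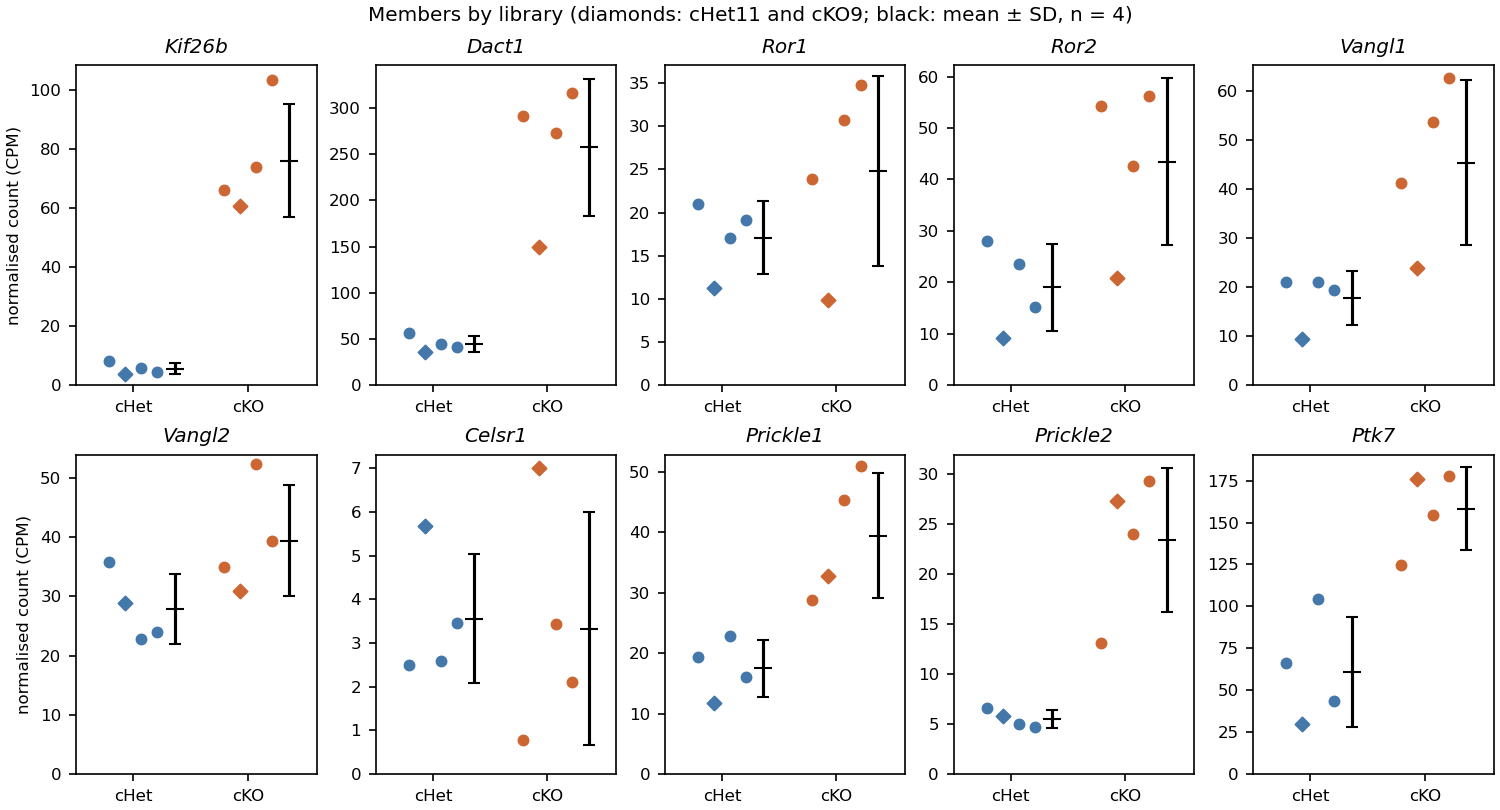
Normalised counts (CPM, linear axis from 0) of the 10 members in the 4 cHet (blue) and 4 cKO (orange) libraries, with black bars for mean ± SD and diamonds for cHet11 and cKO9. Kif26b lies at 3.77 to 8.26 CPM in cHet and 60.7 to 103 CPM in cKO, while Celsr1 ranges over the same levels in both groups.

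In the edgeR fit across all genes, with genotype as the sole term and Benjamini-Hochberg adjusted p under 0.05, 3 of the 10 members were called higher in cKO (Kif26b, Dact1 and Prickle2) and 0 lower, beside 1.08% and 0.0558% of all tested genes. For 6 of the 10, Kif26b, Dact1, Vangl1, Prickle1, Prickle2 and Ptk7, every cKO library was above every cHet library, as for 6.46% of all tested genes. The members' median log2 fold change was 1.27 and that of all tested genes −0.03. Since the contrast entered the choice of members, nothing is read from these counts. They depended on single libraries. Without cKO9, 4 members were called, beside 3.67% of all genes called higher, and without cHet8, 3 members, beside 0.698%. Without cKO7, 2 members were called and without cKO15 only Kif26b, beside 0.0357% of all genes in each. Without cHet11 only Kif26b was called, beside 0.0136%. Without cHet12, cHet14 or cKO14 edgeR called 0 members and 0 of all genes, while 2934 to 3352 genes had an unadjusted p under 0.05. Without cHet11 and cKO9 together, an omission chosen after seeing the data, 4 were called, beside 2.84%. DESeq2 called 7 of the 10, where it called 7.95% of all genes higher, and limma voom 6, where it called 5.65%.

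Relative to the 16 general mesenchyme markers, Kif26b and Dact1 still separated the groups and the other 8 members did not. The dental mesenchyme markers differed more between the groups (log2 ratio of means 2.08, against 1.11 for the general list). The separation of Dact1 holds for the general list alone. Relative to the dental list it stood higher in cHet11 (35.3 CPM beside a dental sum of 536 CPM) than in cKO9 (149.5 beside 2882 CPM), so the groups overlapped. Kif26b stayed apart on the dental list. Its largest cHet share was that of cHet11 (3.77 CPM) and its smallest cKO share that of cKO7 (66.1 beside 4696 CPM). Per 10000 counts of the 16 general mesenchyme markers, Kif26b had 6.75, 9.44, 4.39 and 5.20 counts in cHet8, cHet11, cHet12 and cHet14, and 37.7, 42.2, 35.0 and 36.5 in cKO7, cKO9, cKO14 and cKO15. The cKO libraries lay closer together on this scale than in CPM, and cKO9, the lowest in CPM, was the highest. The means were 6.44 ± 2.22 and 37.9 ± 3.13 (SD, n = 4), a ratio of 5.88. Dact1 had 45.7, 88.4, 35.0 and 48.0 counts in the cHet libraries in the same order and 167, 104, 129 and 112 in the cKO libraries, a ratio of means of 2.36. cHet11 came close to cKO9, with no overlap. Cxcl12, the gene that names the sorted cells, moved with them. It was 5.54-fold higher in cKO, 149 ± 91.4 against 825 ± 238 CPM (SD, n = 4 each, edgeR adjusted p = 0.0497), and had 156 ± 49.4 and 412 ± 104 counts per 10000, also without overlap. Its ratio of means on this scale was 2.65, above that of Dact1. The part of Cxcl12-expressing cells in the values of the members was not tested. Of all tested genes, 1.16% were higher in every cKO library on this scale and 31.6% lower in every one.

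Ror2, Vangl1 and Prickle1 were level between the groups on the mesenchyme scale. Ror2 had 20.5 ± 2.93 counts per 10000 in cHet and 21.4 ± 6.91 in cKO, Vangl1 20.02 ± 3.63 and 21.98 ± 3.82, and Prickle1 20.4 ± 6.14 and 19.7 ± 2.98. Ptk7 had 65.2 ± 15.4 and 82.4 ± 27.1, and Prickle2 7.32 ± 4.87 and 12.0 ± 4.90, the latter with cHet11 at 14.6 and the other cHet libraries at 3.94 to 5.43. Ror1 had 20.2 ± 6.41 and 11.8 ± 3.45, and Vangl2 36.7 ± 24.1 and 20.04 ± 4.56, so both had lower means in cKO and their direction turned, with overlap between the groups. Celsr1 had 5.57 ± 5.84 and 1.92 ± 2.03. These markers themselves differ between the genotypes, so a ratio to them shows unequal change only.

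**Figure D2:**
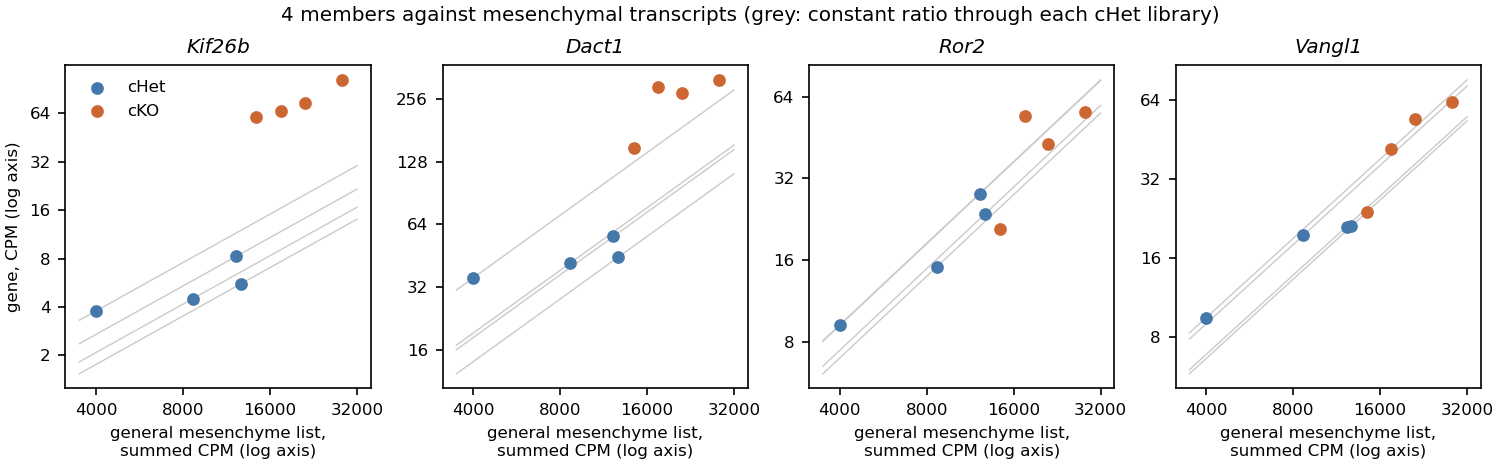
CPM of Kif26b, Dact1, Ror2 and Vangl1 (vertical, log axis) against the summed CPM of 16 general mesenchyme markers (horizontal, log axis) in 4 cHet (blue) and 4 cKO (orange) libraries, with grey lines of constant ratio through each cHet library. Kif26b in cKO lies above every line, at 35.0 to 42.2 counts per 10000, whereas Vangl1 in cKO lies among the lines or beside them.

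With mesenchyme scaling in the fit itself the median of all genes moved to −1.34 on the log2 scale. The log2 value of Kif26b was 2.56, against 3.78 with TMM factors, and that of Dact1 was 1.24, against 2.54. On this scaling edgeR called 0 members, beside 0.0139% of all genes called higher and 11307 genes with an unadjusted p under 0.05. Relative to that shift 9 of the 10 members stood above the median gene, as with TMM factors, and Celsr1 below it. The mesenchyme score of a library is the mean log2 CPM of the general mesenchyme markers. It was 6.56 to 8.17 in cHet and 8.13 to 9.07 in cKO, so a fit with both can hardly tell it from genotype. With this score as a covariate, Kif26b had a log2 value of 3.04. Kif26b was the sole member called, beside 0.0325% of all genes called higher. With the olfactory score as covariate its value was 3.25, and 0 members were called by edgeR, as were 0 of all genes, while 1405 genes had an unadjusted p under 0.05. Ror1 was negative with the mesenchyme covariate (−0.44), and Ror2 close to 0 (0.06).

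**Figure D3:**
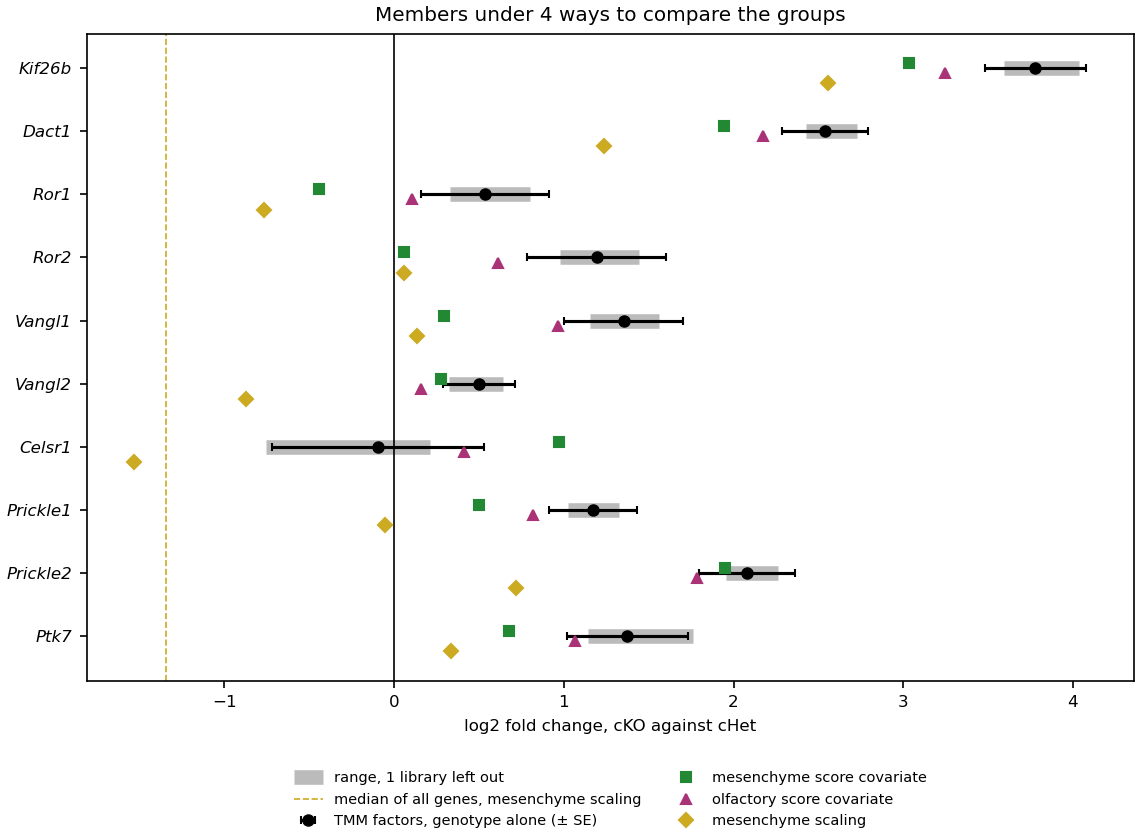
Log2 fold change of cKO against cHet for each member with TMM factors (black, ± SE), with a mesenchyme or olfactory score as covariate and with mesenchyme scaling, over grey bars for the range when 1 library was left out. Kif26b stays between 2.56 and 4.04 in all of these. Ror1, Vangl2 and, narrowly, Prickle1 (−0.053) change sign with mesenchyme scaling, where the median of all genes (dashed) is −1.34. Ror1 also changes sign with the mesenchyme covariate, and Celsr1 with either covariate and in some fits that left out 1 library.

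Ratios of close relatives within a library do not depend on how libraries are scaled. The log2 ratio of Ror1 to Ror2 was −0.42, 0.29, −0.47 and 0.35 in cHet8, cHet11, cHet12 and cHet14 and −1.18, −1.08, −0.47 and −0.69 in cKO7, cKO9, cKO14 and cKO15. The mean was 0.79 lower in cKO, and the groups met at cHet12 and cKO14. Vangl1 to Vangl2 was −0.69 ± 0.67 in cHet and 0.15 ± 0.43 in cKO (SD, n = 4), and Prickle1 to Prickle2 was 1.63 ± 0.49 and 0.78 ± 0.37, each with overlap. The difference between the group means was 0.84 for Vangl1 to Vangl2, and 0.54 without cHet11. For Prickle1 to Prickle2 it was −0.85, and −1.06 without cHet11.

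Levels can be ordered between genes once counts are divided by length, here the exon union of the GENCODE M21 gene model. In cHet, Dact1 (11.8 ± 2.29 CPM per kb) and Ptk7 (11.3 ± 6.05) were highest and did not differ beyond their spread. Then came Ror2 (4.48 ± 1.99), Prickle1 (4.02 ± 1.08) and Vangl2 (3.98 ± 0.84), which did not differ beyond their spread. Ror1 (2.97 ± 0.73) was below Vangl2 by more than the SD of either, and within the spread of Vangl1 (2.49 ± 0.78). Prickle2 (0.641 ± 0.102), Kif26b (0.376 ± 0.134) and Celsr1 (0.323 ± 0.135) were lowest, and the last 2 did not differ beyond their spread. In cKO Dact1 led with 68.5 ± 19.7 CPM per kb before Ptk7 with 29.4 ± 4.59. Kif26b, at 5.17 ± 1.29, stood among Vangl1 (6.35 ± 2.35), Vangl2 (5.63 ± 1.34) and Ror1 (4.31 ± 1.90), with Celsr1 last at 0.303 ± 0.243.

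Genes with profiles closest to that of Kif26b were found by the root mean square difference of centred log2 CPM over the 8 libraries, among 12464 other genes whose mean reached 5 CPM. Col25a1, a transmembrane collagen, was closest (0.18), then Syt6 (0.41), Megf6 (0.41), Bmp2 (0.42), Ifitm10 (0.42) and Nell1 (0.44). Dact1 itself ranked 44 (0.70). For Dact1 the closest were Timp3 (0.20), Thbs3 (0.21), Ptprt (0.22), Gas1 (0.23), Tspan9 (0.23) and Brinp1 (0.25). The measure contains the genotype difference, so it mostly finds genes with a like difference.

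The other genes of these pathways, 56 chosen by role of which 55 were tested, gave 1 call higher in cKO and 0 lower, a share near the 1.08% of all genes called higher. Of the 55, 37 had positive and 18 negative log2 values, with a median of 0.22 against −0.03 over all tested genes, and 18 were higher and 3 lower at an unadjusted p under 0.05, beside 10.8% and 6.33% of all tested genes. The groups did not overlap for 14 in the upward and 1 in the downward direction, where 6.46% and 3.68% of all tested genes did so. The called gene was Dact3, a relative of Dact1. It was at 30.9, 25.2, 32.9 and 28.6 CPM in cHet8, cHet11, cHet12 and cHet14 and at 79.9, 54.4, 66.6 and 90.7 CPM in cKO7, cKO9, cKO14 and cKO15. It rose 2.48-fold, higher in 4 of 4 cKO libraries (log2 1.31, SE 0.18, edgeR adjusted p = 0.0328), and its call held in 2 of the 8 fits that left out 1 library, those without cHet8 and without cKO9. Relative to the general mesenchyme markers Dact3 was level, with 36.8 ± 17.9 counts per 10000 in cHet and 36.8 ± 6.55 in cKO.

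Among ligands and co-receptors none of 10 was called by edgeR. The Frizzled receptor genes Fzd7 (log2 1.49, SE 0.31, adjusted p = 0.0639) and Fzd2 (log2 1.25, SE 0.27, adjusted p = 0.0745) and the glypican gene Gpc4 (log2 1.34, SE 0.32, adjusted p = 0.0869) had the smallest p, and cKO was above cHet in every library for each. Wnt5a, the ligand of this branch, named after its values were seen, was at 59.8, 30.3, 70.6 and 51.1 CPM in cHet8, cHet11, cHet12 and cHet14. It was at 99.4, 63.6, 102 and 161 CPM in cKO7, cKO9, cKO14 and cKO15, so cKO9 fell within the cHet range (log2 1.01, SE 0.33, adjusted p = 0.179).

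Core polarity and Dishevelled genes gave 0 calls among 10 tested and Prickle4 was not tested, with 2 reads at most in a library. Dvl2, a Dishevelled gene, was at 39.8 to 48.5 CPM in cHet and 56.1 to 60.7 CPM in cKO (log2 0.43, SE 0.10, adjusted p = 0.0897), a small difference with a small spread, and Smurf1, a ubiquitin ligase of polarity proteins, had a log2 value of 0.52 (adjusted p = 0.115) and Ankrd6 of 0.68 (adjusted p = 0.264). Of the relatives and partners of Kif26b and Dact1, Kif26a had a log2 value of 1.31 (SE 0.43, adjusted p = 0.182) at 3.09 ± 1.20 and 7.65 ± 2.97 CPM. Myh10, the nonmuscle myosin known as a Kif26b partner in kidney mesenchyme, had a log2 value of 0.74 (adjusted p = 0.122).

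Daam2, a formin-like Dishevelled partner, had a log2 value of 2.06 (SE 0.51, adjusted p = 0.0980) and the transcription factor gene Jun of 1.0 (adjusted p = 0.0890), and neither was called. The Fat and Dachsous system, a second polarity pathway of giant cadherins, had 4 of 7 genes with cKO above cHet in every library, as 6.46% of all tested genes had, and 0 calls. Dchs2, among these 4 and named for its low counts, was near the floor. It was at 0 to 0.582 CPM in cHet and 0.713 to 2.26 CPM in cKO. Fat1 had a log2 value of 1.07 (SE 0.21, adjusted p = 0.0556), Fat4 of 1.47 (adjusted p = 0.0890) and Dchs1 of 1.22 (adjusted p = 0.151). In the calcium branch 0 of 10 were called. Its smallest p were those of Nfatc4 (log2 1.41, adjusted p = 0.121), Nfatc1 (−0.46, adjusted p = 0.202) and Prkca (0.69, adjusted p = 0.254). The cilia effectors Wdpcp (log2 −0.34, adjusted p = 0.210), Fuz (0.28, adjusted p = 0.614) and Intu (0.01, adjusted p = 0.987) were not called. All p-values in these paragraphs on pathway genes are from edgeR with adjustment over 21508 genes. With mesenchyme scaling the signs of Ankrd6, Dvl2, Smurf1, Dact3, Myh10, Jun, Intu, Fuz, Fat1, Prkca and Wnt5a turned negative. Of these genes Intu alone was below the median gene of that fit. Nfatc1 and Wdpcp, negative with TMM factors too, were also below it.

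**Figure D4:**
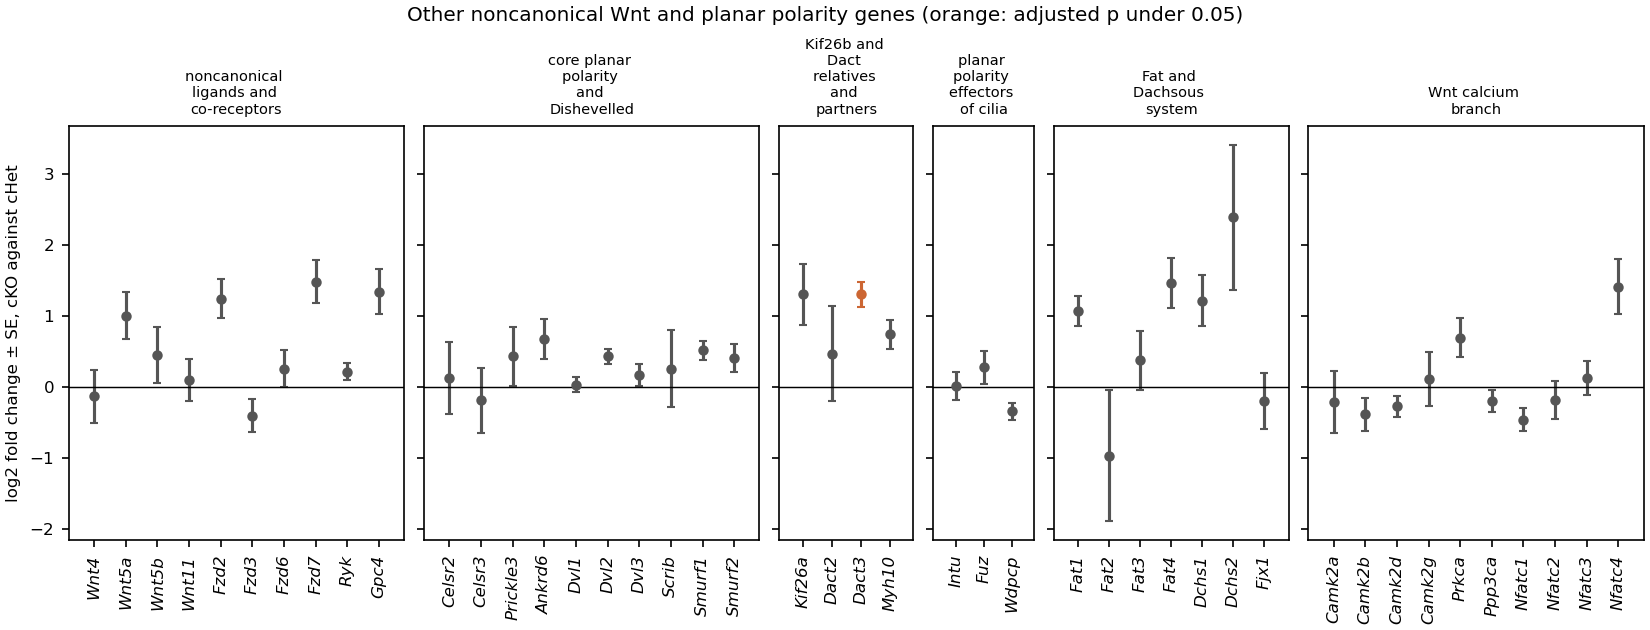
Log2 fold change of cKO against cHet (± SE) for 44 of the 55 tested pathway genes outside the 10 members, by role, with the called gene in orange. Dact3 is the single called gene, at 1.31, and Fzd7 and Fat4, at 1.49 and 1.47, have larger values with larger errors.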

How the data were processed

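RNA was measured in 8 libraries, 4 cHet and 4 cKO. The deposited values are the authors' raw whole-number counts per Ensembl gene. Trim Galore, STAR, GRCm39 and mm39 are named in the submitters' processing notes. The labels and the table do not state the tool, annotation or strand setting of the counting, so antisense reads cannot be separated. Per the labels' protocols, SMART-Seq v4 cDNA was used. Of 56748 identifiers 52073 matched a symbol, and the identifier with the most counts stood for a symbol. Column numbers match no sample title, so columns were assigned to groups only. Separate animals are not stated, so p-values reflect variation among libraries that may be technical.

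Genotypes were compared with edgeR 4.0.16 in R 4.3.3 (TMM factors, default expression filter by group, 21508 genes tested, quasi-likelihood F test, two-sided, Benjamini-Hochberg adjusted p under 0.05). The SE is approximate, from the log2 fold change and its F statistic. Marker sums were compared with an exact two-sided permutation test over 70 splits (SciPy 1.17.1). DESeq2 1.42.0 and limma 3.58.1 (voom with quality weights), other factors, filters, covariates (mean log2 CPM of a marker list) and omitted libraries were alternatives. The fit was tested on simulated counts of 4 against 4 libraries for 21508 genes, where 73% of 4-fold and 85.9% of 16-fold changes were found, with 7 false among 165 calls. The members, gene lists, marker lists and alternatives were chosen with earlier results of these data known. A group of pathway genes is counted in the totals and otherwise not reported here. All members are named, then called pathway genes and up to 3 per list with the smallest p. Likeness used a prior count of 2, and the 6 closest genes whose symbols are not predicted names are given.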

Additional observations from a re-analysis of the deposited data

Results flagged for a closer look

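Of 102 groups of 4 libraries checked, 7 had a library far from the other 3, where chance gives about 1 in 20. Vangl1 in cHet11 was at 9.49 CPM, below the 19.5 to 21.1 CPM of the other cHet libraries. Fzd2 in cKO15 was at 46.7 CPM, above a narrow 42.0 to 42.7 CPM. Intu in cHet12 was at 14.9 CPM, below 22.7 to 24.1 CPM. Among marker sums, endothelial markers reached 31.5 CPM in cKO14 against 10.3 to 12.4 CPM. Neutrophil markers reached 14706 CPM in cHet12 against 22.2 to 1054 CPM. Schwann cell markers reached 237 CPM in cKO7 against 82.6 to 92.8 CPM. Red blood cell markers were at 42.8 CPM in cHet8 against 77.7 to 84.6 CPM.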

How the results depend on the processing

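Kif26b, Dact1, Ror2, Vangl1, Prickle2 and Ptk7 kept their direction in the 19 alternatives run, Kif26b between 2.56 and 4.04 and Dact1 between 1.24 and 2.73 on the log2 scale, and the cause of lost calls was not tested. The number of genes called over the whole table was 244, and 2580 with DESeq2, 1438 with voom, 5 with mesenchyme scaling, 9 with the mesenchyme covariate, 0 with the olfactory covariate by edgeR (1405 at an unadjusted p under 0.05), 641 without cHet11 and cKO9 together (chosen after seeing the data), and 0 to 960 when 1 library was left out. Members called higher numbered 3, and 7 with DESeq2, 6 with voom, 0 with mesenchyme scaling, 1 with the mesenchyme covariate, 0 with the olfactory covariate and 0 to 4 with 1 library left out. Pathway genes called higher numbered 1, and 15 with DESeq2, 12 with voom, 2 with a filter of 1 CPM in 4 libraries, 0 with mesenchyme scaling or either covariate, 4 without cHet11 and cKO9 together, and 0 to 5 with 1 library left out. Pathway genes called lower numbered 0, and 3 with DESeq2.

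Mesenchyme scaling reversed Ror1 (−0.77), Vangl2 (−0.87), Prickle1 (−0.053), Ankrd6 (−0.51), Dvl2 (−0.87), Smurf1 (−0.74), Dact3 (−0.0014), Myh10 (−0.56), Jun (−0.36), Intu (−1.36), Fuz (−0.99), Fat1 (−0.29), Prkca (−0.44) and Wnt5a (−0.21), where the median of all genes was −1.34. The mesenchyme covariate reversed Ror1 (−0.44), Celsr1 (0.97) and Ankrd6 (−0.088), and the olfactory covariate Celsr1 (0.41). Intu was −0.0895 with library size alone, −0.11 with voom, −0.0028 with the filter of 1 CPM and −0.035 without cHet11 and cKO9 together. With 1 library left out Celsr1 lay between −0.76 and 0.21 and Intu between −0.13 and 0.080. No paired analysis was possible because the columns do not carry the replicate numbers of the sample titles. Each member had at least 35 reads per library. Which of read depth and library-to-library spread bounds the calls was not tested.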

Other observations

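Several polarity genes that are not members stood high in cKO9 alone, and they were chosen after their values were seen. Celsr2, a relative of Celsr1, was at 40.6 CPM in cKO9 and at 8.84 to 12.1 CPM in the other cKO libraries, with 12.5 to 21.7 CPM in cHet. Celsr3 was at 27.3 CPM in cKO9, 5.83 to 9.79 CPM in the other cKO libraries and 10.8 to 16.3 CPM in cHet. Scrib, a cell polarity scaffold, was at 85.1 CPM in cKO9, 17.7 to 24.2 CPM in the other cKO libraries and 20.7 to 52.1 CPM in cHet.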
